A study of Rattus norvegicus with 36 samples.

Results

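Mast cells are tissue-resident immune cells that store proteases, histamine and heparin in granules and release them when their IgE receptor is cross-linked. In the lung they lie around airways, vessels and the pleura, and they grow and survive through stem cell factor acting on its receptor KIT. Rat mast cells carry tryptases (Tpsab1 and Tpsb2), a chymase (Cma1) and carboxypeptidase A3 (Cpa3) in their granules, the α and β chains of the high-affinity IgE receptor (Fcer1a and Ms4a2) at their surface, and histidine decarboxylase (Hdc), the enzyme that makes histamine. These 7 genes and Kit were taken by name, and they are 8 of the 23940 genes tested. The arrays hold 11 probes for them, out of 45598 probes in all, because Fcer1a, Hdc and Kit have 2 probes each.

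The expression of these genes was measured in the accessory lobe of the lung of female Sprague Dawley rats aged 13 weeks at instillation. DQ-12, a crystalline silica dust, was given once by instillation through the trachea at 10 mg per rat in saline, and vehicle rats received saline alone. Lungs were taken after 1 day (D1), 30 days (D30) or 180 days (D180), with 6 rats in each of the 6 groups. Each rat has its own Agilent array in a single color, which makes 36 arrays. The values below are log2 signals after quantile normalization, and a gene was called changed where limma, fitted to the 36 arrays together, gave an adjusted p under 0.05 (Benjamini–Hochberg over all genes). A fold change (FC) is DQ-12 over vehicle at the same time point, and SE is its standard error. Whole tissue was measured, so more mast cells and more RNA per mast cell cannot be told apart.

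Of the 45598 probes, 51.5% to 75.5% were well above background per array, and the number of arrays limits the precision of each value. The lowest shares were those of DQ-12 replicate 5 (51.5%) and vehicle replicate 4 (56.6%), both at D180. Each of these 2 rats was the highest of its group for Tpsab1, Cma1, Cpa3, Fcer1a and Hdc. Whether array quality bore on those values was not tested. All 8 genes passed the filter on dim probes, and 7 of them were well above background on all 36 arrays. Ms4a2 was so on 26 arrays, and its low values are less certain. The silica response gene Spp1 (osteopontin) separated the groups at every time point, with 10.7 to 12.3 in DQ-12 rats and 2.43 to 6.41 in vehicle rats at D1. Arrays were spread over 19 slides and 11 scan dates. At D180, 2 of 6 scan dates held both groups (4 arrays of each), whereas only 1 of 10 slides did, with 1 array of each. At D1, all DQ-12 arrays shared their scan date with 1 vehicle array. Values within these batches are given beside the results.

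At D180, 6 of the 8 genes were called, 5 higher and Kit lower, where 16.8% of all genes tested were called (7.82% higher, and 2154 of 23940 genes lower). Their log2 FC had a median of 0.84, against -0.03 for all genes tested. At D1 only Hdc was called, and it was lower (16.2% of all genes called, 8.62% lower). At D30 none was called by limma, none had an unadjusted p under 0.05, and 3.98% of all genes were called. Their median stood at -0.03 at D1 and -0.01 at D30.

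**Figure D1:**
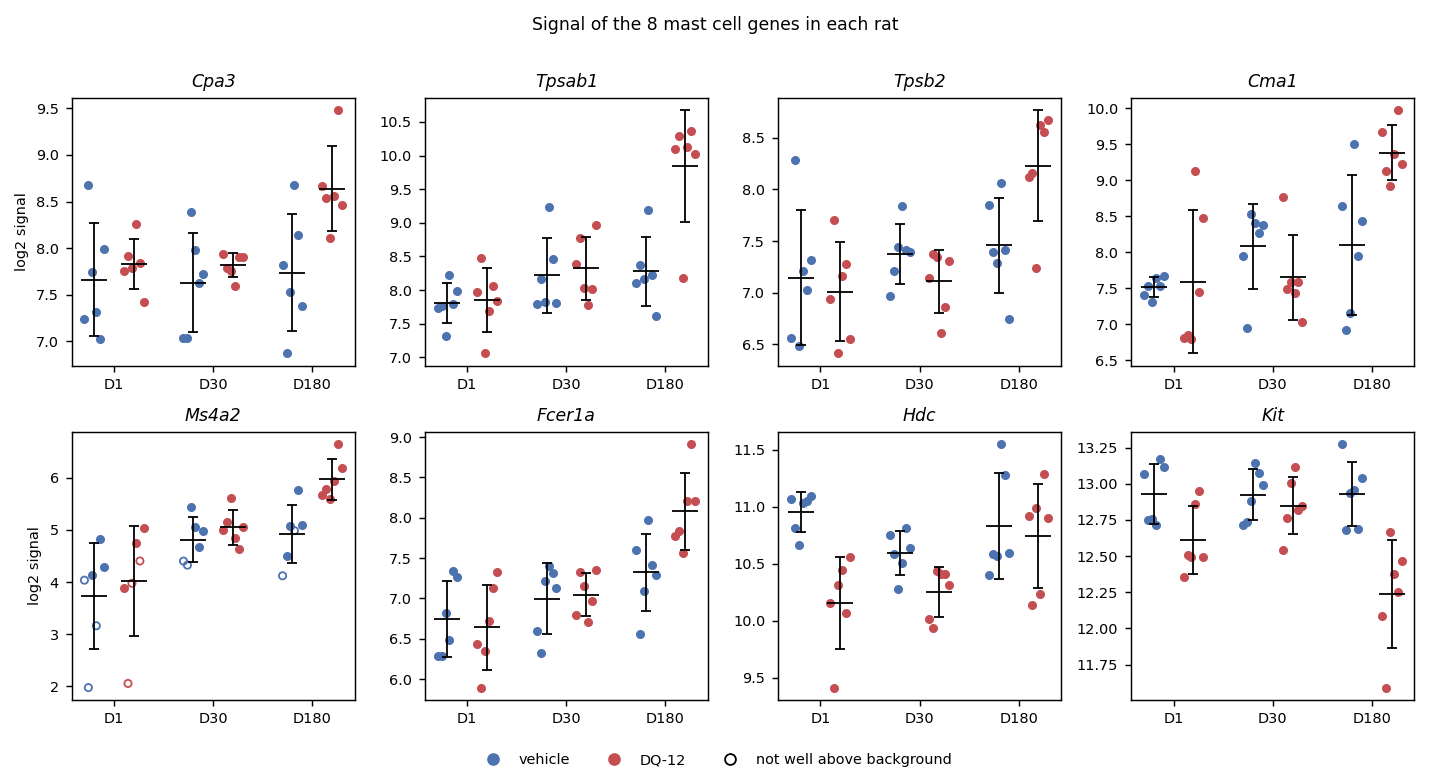
Log2 signal (vertical axis, own scale in each panel) of each mast cell gene in each rat, by time point, with vehicle in blue and DQ-12 in red; black bars are the group mean and SD (n = 6), and open circles are arrays on which the probe was not well above background. At D180 most DQ-12 rats sit high for the 4 proteases and both IgE receptor genes (replicate 3 not for the tryptases), and all 6 are low for Kit, whereas at D1 Hdc is low in all 6 DQ-12 rats.

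All 4 granule proteases rose by D180, Tpsab1 the most. Tpsab1, which encodes an α/β tryptase, measured 7.62, 8.11, 8.17, 8.22, 8.37 and 9.19 in the 6 vehicle rats at D180. In the DQ-12 rats it measured 8.18, 10.03, 10.10, 10.12, 10.29 and 10.37. Hence 5 of the 6 DQ-12 rats were above every vehicle rat, and the remaining one (replicate 3) lay within the vehicle range. The rise was 2.97-fold (log2 FC 1.57, SE 0.31, adjusted p = 0.000339), and an exact permutation test over the 462 ways of dividing 12 arrays into groups of 6 gave p = 0.00866 (2-sided). Without replicate 3 the log2 FC was 1.90. The Spp1 signal of that rat was the lowest of the DQ-12 group but above all vehicle rats, whose highest was 6.86.

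Tpsb2, the second tryptase, lies near Tpsab1 on chromosome 10. It measured 6.75, 7.28, 7.39, 7.41, 7.85 and 8.06 in vehicle rats at D180 and 7.24, 8.12, 8.16, 8.56, 8.62 and 8.67 in DQ-12 rats. Again 5 of 6 DQ-12 rats were above all vehicle rats, and the low one was replicate 3. The log2 FC was 0.77 (SE 0.27, adjusted p = 0.0426; exact permutation p = 0.0303), a rise of 1.71-fold.

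Cma1, the chymase, measured 6.92, 7.15, 7.95, 8.44, 8.64 and 9.50 in vehicle rats and 8.92, 9.13, 9.23, 9.36, 9.67 and 9.98 in DQ-12 rats. The vehicle rats were widely spread (SD 0.97), whereas the DQ-12 rats were close together (SD 0.38) and high, with 2 of them above the highest vehicle rat. The log2 FC was 1.28 (SE 0.38, adjusted p = 0.0167; exact permutation p = 0.0130), or 2.43-fold.

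Cpa3, a metallo-exopeptidase stored with the chymase on heparin, measured 6.87, 7.38, 7.52, 7.82, 8.14 and 8.67 in vehicle rats and 8.11, 8.46, 8.54, 8.55, 8.67 and 9.48 in DQ-12 rats. The groups overlapped, since 1 DQ-12 rat alone exceeded the highest vehicle rat. The log2 FC was 0.90 (SE 0.27, adjusted p = 0.0162; exact permutation p = 0.0238), or 1.87-fold. With an FC of at least 2 required as well, Tpsab1 and Cma1 qualified as differentially expressed (2.86% of all genes were higher by this rule), and the other called genes did not.

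At the earlier time points the protease signals of exposed and vehicle rats overlapped. Their log2 FC ran from -0.14 (Tpsb2) to 0.17 (Cpa3) at D1 and from -0.43 (Cma1) to 0.19 (Cpa3) at D30. The 95% confidence interval of the Tpsab1 change was -0.58 to 0.68 at D1 and -0.52 to 0.74 at D30, so a change of the size seen at D180 lay outside both. For Cma1 the interval was wider, from -0.71 to 0.85 at D1 and from -1.21 to 0.35 at D30. At D1 the DQ-12 arrays themselves fell apart for this gene, with 4 at 6.80 to 7.45 and the others at 8.48 and 9.13, whereas vehicle rats lay between 7.31 and 7.67. The low DQ-12 arrays shared a slide and the high ones shared another, so a difference between rats and one between slides cannot be told apart.

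The levels of Tpsab1 across the 6 groups, from the lowest mean, were 7.80 ± 0.30 (SD, n = 6) in vehicle rats at D1, 7.85 ± 0.47 in DQ-12 rats at D1, 8.22 ± 0.56 in vehicle rats at D30, 8.28 ± 0.51 in vehicle rats at D180, 8.32 ± 0.47 in DQ-12 rats at D30 and 9.85 ± 0.83 in DQ-12 rats at D180. The 5 lowest means differed from their neighbours by less than their SDs, and only the D180 DQ-12 group stood above. The exposure effect on Tpsab1 at D180 exceeded that at D1 by 1.52 on the log2 scale (SE 0.44, adjusted p = 0.0378 for the interaction, with 4.55% of all genes called). With slide as a fixed block, which rests on 1 slide at each of these time points, the difference was 0.34 (adjusted p = 0.962), and with scan date as a fixed block it was 0.74 (adjusted p = 0.778). With slide or scan date as a random block it was 1.29 (adjusted p = 0.133) and 1.33 (adjusted p = 0.177), so that no fit with a batch kept the call. No other member passed the test without a batch, and none passed that of D180 against D30 (0.246% of all genes called), although the unadjusted p was under 0.05 for 4 members, among them Tpsab1 (1.46 on the log2 scale, adjusted p = 0.144). The difference between D30 and D1 was not called for any member (2.18% of all genes called), and none had an unadjusted p under 0.05.

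**Figure D2:**
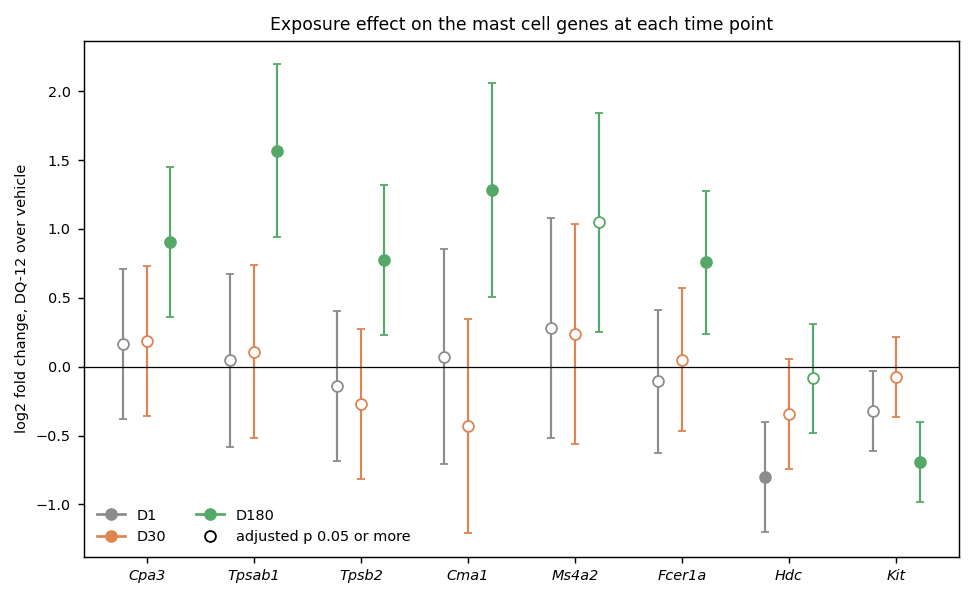
Log2 FC of DQ-12 over vehicle (vertical axis) for each gene at D1 (grey), D30 (orange) and D180 (green), with bars for the 95% confidence interval of the limma fit; filled points have an adjusted p under 0.05. At D180 the intervals of the 4 proteases, Ms4a2 and Fcer1a lie above 0 and that of Kit lies below 0, and at D1 Hdc alone is filled.

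The promoter sequences of the genes that rose are shown because GATA factors are known to drive mast cell genes. The RefSeq promoter table (build GRCr8) matched 7 of the 8 members, all but Ms4a2. The 250 bases before the start site were searched on both strands for AGATAA or TGATAA, motifs that GATA factors bind, and for CATGTG or CACGTG, E-boxes that MITF binds; the GATA and E-box letters did not overlap in these promoters. GATA letters were found in 3 members (Cpa3, Cma1 and Fcer1a) and in 16.9% of the 33469 promoters of the table. E-box letters were also found in 3 members (Cpa3, Tpsb2 and Fcer1a) and in 17.1% of all promoters. The lines below give the 120 bases before the start of 5 members, 5′ to 3′ on the strand of the gene, with the GATA letters in capitals. In Cpa3 they begin 55 bases before the start, in Cma1 64 bases and in Fcer1a 93 bases, where they stand on the opposite strand. The tryptase promoters are set beside them without a match. Cpa3 is at chr2:104673238-104673357 (minus strand), Cma1 at chr15:33390134-33390253 (minus), Fcer1a at chr13:88224680-88224799 (minus), Tpsab1 at chr10:14867303-14867422 (minus) and Tpsb2 at chr10:14886190-14886309 (plus).
Cpa3: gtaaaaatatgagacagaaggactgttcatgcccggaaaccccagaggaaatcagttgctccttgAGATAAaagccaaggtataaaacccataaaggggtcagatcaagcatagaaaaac
Cma1: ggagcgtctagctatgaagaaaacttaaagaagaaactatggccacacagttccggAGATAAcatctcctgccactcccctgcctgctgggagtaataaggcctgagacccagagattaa
Fcer1a: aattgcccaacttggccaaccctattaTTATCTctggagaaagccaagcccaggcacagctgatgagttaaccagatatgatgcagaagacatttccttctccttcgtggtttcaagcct
Tpsab1: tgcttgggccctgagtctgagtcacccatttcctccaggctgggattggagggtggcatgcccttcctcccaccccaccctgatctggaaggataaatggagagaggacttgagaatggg
Tpsb2: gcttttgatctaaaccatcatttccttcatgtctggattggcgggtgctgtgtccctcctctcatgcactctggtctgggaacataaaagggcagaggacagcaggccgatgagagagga
These matches describe the letters in these windows, and binding was not measured.

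Of the IgE receptor genes, Fcer1a was called at D180 and Ms4a2 was not. Fcer1a, the chain that binds IgE, measured 6.57, 7.09, 7.29, 7.42, 7.60 and 7.97 in vehicle rats and 7.56, 7.77, 7.83, 8.20, 8.20 and 8.91 in DQ-12 rats. The groups overlapped, with 3 DQ-12 rats above all vehicle rats, and the log2 FC was 0.76 (SE 0.26, adjusted p = 0.0365; exact permutation p = 0.0173). A second, dimmer probe of Fcer1a (means of 4.85 to 5.61 over the groups) gave 0.29 (SE 0.31, adjusted p = 0.641 among all probes), and its deviations from the group means did not follow those of the first (r = -0.08 over 36 arrays). The call of Fcer1a therefore rests on 1 of its 2 probes.

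Ms4a2, the β chain that amplifies the signal of the receptor, measured 4.12, 4.50, 4.99, 5.08, 5.09 and 5.76 in vehicle rats and 5.59, 5.68, 5.79, 5.93, 6.18 and 6.65 in DQ-12 rats at D180. The probe was well above background on 4 of the 6 vehicle arrays and on all DQ-12 arrays. With 4 DQ-12 rats above all vehicle rats, the exact permutation p was 0.00649, but the gene was not called (log2 FC 1.05, SE 0.39, adjusted p = 0.0627). It was called in 8 of 16 alternative settings and in 1 of the 12 fits that each left out a rat. The normexp background correction, an alternative treatment of the intensities, gave the lowest adjusted p of these (0.00215), with a log2 FC of 0.39. At D1 and D30 neither receptor gene was called, and their log2 FC lay between -0.10 and 0.28.

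Markers of basophils, blood cells that also carry the IgE receptor, were mixed at D180. Of 5 basophil markers tested, 2 were higher at D180, where 7.82% of all genes were. They were the surface receptor Cd200r1 (log2 FC 1.42, adjusted p = 0.00113) and the protease Mcpt8l2 (0.97, adjusted p = 0.00603). The log2 FC of the 5 markers ran from -0.52 to 1.42, with a median of 0.32, and none was called lower by limma. The basophil protease Prss34, chosen after its values were seen, gave -0.30 (adjusted p = 0.645). The mean log2 signal of the 5 markers was 5.73 to 6.24 in DQ-12 rats and 5.09 to 6.17 in vehicle rats. At D180 Mcpt8l2 and Prss34 were well above background on all arrays and Il4 on 1 of 6 in each group. Their part in the IgE receptor signals was not tested.

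Hdc followed another course. At D1 it measured 10.67, 10.82, 11.03, 11.05, 11.07 and 11.10 in vehicle rats and 9.41, 10.06, 10.15, 10.31, 10.44 and 10.55 in DQ-12 rats. Every DQ-12 rat was below every vehicle rat, as for 5.98% of all genes at D1. The log2 FC was -0.80 (SE 0.20, adjusted p = 0.00432), a fall of 1.74-fold, and the exact permutation p was 0.00216, the smallest this design allows. The second probe of Hdc moved with the first (r = 0.57) and gave -0.49 (SE 0.24, adjusted p = 0.197 among all probes).

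At D30 the log2 FC of Hdc was -0.34 (adjusted p = 0.418), with an exact permutation p of 0.0173 for this gene alone. At D180 DQ-12 rats (10.14 to 11.28) and vehicle rats (10.40 to 11.55) covered nearly the same range, and the log2 FC was -0.09 with a 95% confidence interval of -0.48 to 0.31. The change in effect from D1 to D180 was 0.71 (adjusted p = 0.139, unadjusted p = 0.0146). Hdc thus gave no rise at D180 beside the proteases. Its interval there ended below the log2 FC of all 4 proteases, but it overlapped the interval of Tpsb2 (0.23 to 1.32). A difference between Hdc and the proteases was not tested.

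The fall of Hdc at D1 lay in arrays scanned apart. The 5 vehicle arrays of other scan dates cannot enter a comparison within a date, and the difference of the 6 DQ-12 arrays from the single vehicle array of their own date was -0.51 on the log2 scale. With scan date as a fixed block that value was not called (adjusted p = 0.651), and with slide as a fixed block, which compares 4 DQ-12 arrays with the same vehicle array, it was -0.68 (adjusted p = 0.219). With slide as a random block it was -0.73 (adjusted p = 0.0203) and with scan date as a random block -0.71 (adjusted p = 0.0771). Leaving out any 1 of the 12 D1 rats kept the call (adjusted p at most 0.0206).

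Kit, the receptor for stem cell factor, moved against the proteases. At D180 it measured 12.68, 12.69, 12.94, 12.96, 13.04 and 13.27 in vehicle rats and 11.59, 12.08, 12.25, 12.38, 12.47 and 12.67 in DQ-12 rats. No DQ-12 rat reached the lowest vehicle rat, as for 3.47% of all genes (825 genes), although the gap between the nearest rats was small. The log2 FC was -0.69 (SE 0.14, adjusted p = 0.000624), a fall of 1.61-fold, with an exact permutation p of 0.00216. Its second probe gave -0.60 (SE 0.16, adjusted p = 0.00860 among all probes) and varied with the first between rats (r = 0.73).

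Kit means were 12.93 ± 0.22 (SD, n = 6), 12.93 ± 0.21 and 12.92 ± 0.18 in vehicle rats at D180, D1 and D30. DQ-12 rats had 12.85 ± 0.20 at D30, 12.61 ± 0.24 at D1 and 12.24 ± 0.37 at D180. Hence the vehicle groups did not differ beyond their spread. At D1 the log2 FC was -0.32 (adjusted p = 0.129; exact permutation p = 0.0303), with 4 DQ-12 rats below all vehicle rats, and it was called with array weights alone (-0.39, adjusted p = 0.0250). At D30 it was -0.07 (adjusted p = 0.905).

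Endothelial markers were lower at D180, where Kit was lower. KIT is not particular to mast cells, and capillary endothelial cells of the lung are also known to carry it. Of 11 endothelial markers tested, 10 were lower at D180 (2154 of all 23940 genes were) with a median log2 FC of -0.65, led by Ednrb (-1.01, adjusted p = 1.1e-05), Plvap (-0.74, adjusted p = 4.55e-05) and Tek (-0.65, adjusted p = 5.91e-05). Their mean log2 signal was 12.38 to 12.98 in DQ-12 rats and 13.31 to 13.54 in vehicle rats at D180, and all 11 were well above background on every array. Within groups, the deviations of Kit from the group mean went with those of the endothelial markers over 36 arrays (r = 0.56, permutation p = 0.00356; Spearman's rho = 0.41, permutation p = 0.0193). Adjusted over the 8 members, these were 0.0285 and 0.154. Without the 2 arrays farthest from the median of Kit, r was 0.33 (permutation p = 0.0731, adjusted p = 0.485), so that its size depended in part on those arrays. With scan dates removed r was 0.61 (permutation p = 0.0212, adjusted p = 0.170). For the other members r lay between -0.11 (Tpsab1) and 0.36 (Hdc), and none passed the adjustment. At D30, where Kit gave -0.07, the median log2 FC of the endothelial markers was -0.25, with 1 of 11 called lower (Cldn5, -0.78, adjusted p = 0.0280) and 5 lower at an unadjusted p under 0.05. Of all genes, 1.24% were called lower there. At D1, where Kit gave -0.32, their median was -0.28, with 0 called by limma and 6 lower at an unadjusted p under 0.05. The part of these markers in the fall of Kit was not tested.

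Batch and single rats bore on the D180 calls as follows. With scan date as a fixed block, Kit (log2 FC -0.81, adjusted p = 0.00216), Tpsab1 (1.27, adjusted p = 0.0296) and Ms4a2 (1.26, adjusted p = 0.0467) were called, whereas Cpa3 (0.98, adjusted p = 0.0569), Cma1 (1.37, adjusted p = 0.0851), Fcer1a (0.71, adjusted p = 0.178) and Tpsb2 (0.37, adjusted p = 0.463) were not. On the date with 3 arrays of each group the difference was 1.03 for Tpsab1, 0.81 for Cma1, 0.43 for Cpa3, 0.11 for Tpsb2, 0.17 for Fcer1a and -0.94 for Kit. On the date with 1 array of each it was 2.00, 3.06, 2.61, 1.16, 2.35 and -0.43 in the same order. The single slide with both groups paired the vehicle rat that was highest for Tpsab1, Tpsb2, Cma1 and Cpa3 (replicate 4) with DQ-12 replicate 1. There the differences were 0.92 for Tpsab1, 0.06 for Tpsb2, 0.17 for Cma1, -0.0047 for Cpa3, -0.20 for Fcer1a and -0.87 for Kit, and none was called with slide as a fixed block. With slide as a random block Tpsab1 (1.49, adjusted p = 0.000805), Kit (-0.69, adjusted p = 0.00114) and Cma1 remained called.

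Leaving out any 1 of the 12 rats kept Tpsab1 (log2 FC 1.44 to 1.90) and Kit (-0.78 to -0.56) called at D180. Cma1 and Cpa3 were each called in 10 of the 12 fits, Fcer1a in 6 and Tpsb2 in 3. Ms4a2, not called with all rats, was called in 1. Without vehicle replicate 2, the lowest rat for Cma1, Cpa3 and Fcer1a, Tpsab1 and Kit were the only calls. Without vehicle replicate 3 or without DQ-12 replicate 5, 3 members were called, Tpsab1 and Kit each time, with Cpa3 in the former and Cma1 in the latter.

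**Figure D3:**
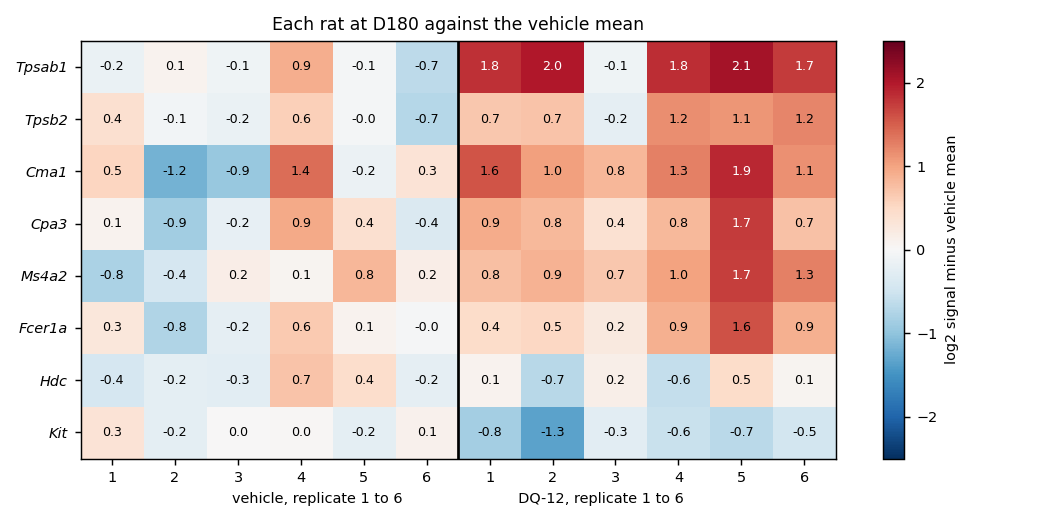
Each rat at D180 (columns, 6 vehicle and 6 DQ-12) for each mast cell gene (rows), as log2 signal minus the vehicle mean, written in each cell and colored from blue (lower) to red (higher). DQ-12 replicate 3 is the lowest DQ-12 rat for the 4 proteases, Ms4a2 and Fcer1a, and its Tpsab1 (8.18) and Cma1 (8.92) signals lie within the vehicle range. DQ-12 replicate 5 is the highest DQ-12 rat for Tpsab1, Cpa3, Cma1, Ms4a2, Fcer1a and Hdc. All DQ-12 rats are below 0 for Kit.

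Some members varied together between rats of the same group. Deviations from the group mean were compared over 36 arrays for the 28 pairs of members, with permutations within groups. After adjustment over the pairs, 6 pairs passed. The strongest was Tpsab1 with Tpsb2 (r = 0.70, Spearman's rho = 0.67, adjusted permutation p = 0.00028 and 0.00056). Ms4a2 with Fcer1a followed (r = 0.66, rho = 0.65, adjusted permutation p = 0.00084 and 0.00224), then Cpa3 with Tpsb2 (r = 0.61, rho = 0.59, adjusted permutation p = 0.00476 and 0.00429). Cma1 went with Fcer1a (r = 0.57, rho = 0.55, adjusted permutation p = 0.00616 and 0.00721) and with Cpa3 (r = 0.51, rho = 0.48, adjusted permutation p = 0.00616 and 0.0296), and Ms4a2 with Hdc (r = 0.44, rho = 0.30, adjusted permutation p = 0.0461 and 0.207).

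Without the 2 arrays farthest from the median of the first gene, r was 0.59 for the tryptases, 0.62 for Ms4a2 with Fcer1a, 0.44 for Cpa3 with Tpsb2, 0.57 for Cma1 with Fcer1a, 0.46 for Cpa3 with Cma1 and 0.27 for Ms4a2 with Hdc. The pair of Cpa3 with Tpsb2 (adjusted permutation p = 0.0824) and that of Ms4a2 with Hdc (adjusted permutation p = 0.38) then no longer passed. With scan date means removed over all 36 arrays instead, the pairs Tpsab1 with Tpsb2 (r = 0.66), Ms4a2 with Fcer1a (r = 0.65) and Cpa3 with Tpsb2 (r = 0.69) passed. None of the 7 pairs with Kit passed, and r lay between -0.23 and 0.37. The pairs of Ms4a2 with the tryptases did not pass either (r = -0.04 for Tpsab1 and -0.31 for Tpsb2).

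**Figure D4:**
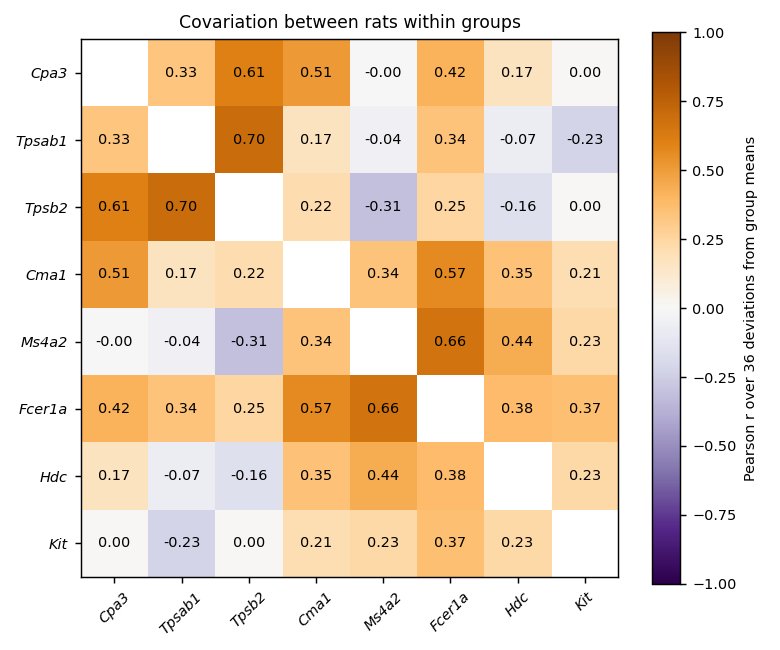
Pearson r between members (rows and columns) over 36 deviations from group means, written in each cell and colored from purple (-1) to orange (1). The tryptases go together at 0.70 and the IgE receptor chains at 0.66, whereas the Kit row lies between -0.23 and 0.37.

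The genes whose deviations were most like the mean of the 4 proteases, out of 23726 genes without missing values, were the mast cell protease genes Mcpt1l1 (r = 0.70 over 36 arrays), Mcpt1l4 (r = 0.69), Mcpt2 (r = 0.68) and Mcpt9 (r = 0.65), and Tex51 (r = 0.65), which stayed below the well-above-background limit on all arrays. These r values pick the extremes of many genes and carry no test. At D180 Mcpt1l1 (log2 FC 0.94, adjusted p = 0.0201), Mcpt1l4 (0.89, adjusted p = 0.0151) and Mcpt9 (0.68, adjusted p = 0.0291) were higher in DQ-12 rats, whereas Mcpt2 gave 0.69 (adjusted p = 0.0541) and Tex51 0.07 (adjusted p = 0.875). None of the 5 was called at D1 or D30. The Mcpt1-like genes have near-identical copies, and their probes may read several of them.

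Among 24 other mast cell granule and identity genes tested, 7 were higher and 2 were lower at D180 (7.82% of all genes were higher and 2154 of 23940 lower), with a median log2 FC of 0.07. Mcpt1l1, Mcpt2 and Mcpt9, named above, belong to this list, and Mcpt1l1 and Mcpt9 are among the 7. The lowest adjusted p values belonged to Tal1, a blood and endothelial transcription factor (-0.86, adjusted p = 9.24e-06), to Slc29a1, a nucleoside transporter (-0.94, adjusted p = 1.11e-05), and to Enpp3, the CD203c ectoenzyme (0.77, adjusted p = 8.43e-05). Tph1, the enzyme that starts serotonin synthesis and is used by rat mast cells, was also higher (1.05, adjusted p = 0.00153). Tph1, and Gata2, Mitf and Slc18a2 below, were chosen after their values were seen. Of these, Tph1 alone was called. The transcription factors gave -0.47 for Gata2 (adjusted p = 0.0584) and 0.47 for Mitf (adjusted p = 0.192), and Slc18a2, the transporter that loads histamine into granules, gave -0.18 (adjusted p = 0.566). At D1 3 genes of this list were higher (7.58% of all genes), with Cd63 (0.56, adjusted p = 0.000797) and Adora3 (0.74, adjusted p = 0.0179) leading them, and 1 was lower, the receptor Mrgprx3 (-1.02, adjusted p = 4.46e-05). At D30 Cd63, a granule membrane protein of many cells, was the only call (0.39, adjusted p = 0.0478), and 2.74% of all genes were higher there.

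Of 23 genes linked to signalling by the IgE receptor, not all of them downstream of it, 11 were higher at D180 (7.82% of all genes were) and none lower by limma. Their median log2 FC was 0.30, and at an unadjusted p under 0.05 the count of lower genes was 0. Cd300a, an inhibitory receptor (1.67, adjusted p = 4.39e-08), the exchange factor Vav1 (0.87, adjusted p = 1.04e-05) and the kinase Btk (1.00, adjusted p = 0.000142) led them. Most of these genes are used by macrophages and other leukocytes as well, and 7 of 14 macrophage markers and 5 of 14 neutrophil markers were higher at D180 (medians 0.65 and 0.72), against the same 7.82% of all genes. The part of those cells in the signalling genes was not tested. At D1 (7.58% of all genes higher and 8.62% lower) 1 gene was higher (Cd300a, 0.88, adjusted p = 0.000929) and 1 lower (the calcium sensor Stim1, -0.54, adjusted p = 0.0011), and at D30 (2.74% of all genes higher) Fcer1g, the γ chain shared with other Fc receptors (0.55, adjusted p = 0.0378), and the kinase Lyn (0.28, adjusted p = 0.0397) were higher.

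Of 22 growth and recruitment factors of mast cells and their receptors, 6 were higher and 2 lower at D180 (median log2 FC 0.46), where 7.82% of all genes were higher and 2154 of 23940 lower. The share of lower factors was near that of all genes. The chemokine Ccl2 was higher at each time point (2.56 at D1, 2.80 at D30 and 4.54 at D180; adjusted p = 3.33e-09, 2.18e-09 and 2.26e-14). The integrin chain Itga4, used by mast cell progenitors to enter the lung, was higher at D30 (0.52, adjusted p = 0.0383) and D180 (0.88, adjusted p = 3.71e-05). Kitlg, which encodes stem cell factor, the ligand of KIT, was lower at D180 (-0.64, adjusted p = 6.84e-05), as was its receptor. At D1 Itgb7, the partner of Itga4, was the other call (0.45, adjusted p = 0.0236).

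Of 18 genes of histamine and of lipid mediators, 2 were higher at D180 (7.82% of all genes were), the leukotriene receptor Cysltr1 (0.50, adjusted p = 0.0052) and the histamine-degrading enzyme Aoc1 (0.84, adjusted p = 0.0497), and the median was 0.13. At D1 2 were higher and 2 lower (7.58% and 8.62% of all genes), with Alox5ap, which hands arachidonate to 5-lipoxygenase (0.61, adjusted p = 0.00275), above and Lta4h (-0.47, adjusted p = 0.00866) and Ptgs1 (-0.38, adjusted p = 0.0295) below. At D30 none was called by limma, and 3 had an unadjusted p under 0.05. Markers of other cells that the lobe could hold were listed as well, beside 7.82% of all genes higher and 2154 of 23940 lower at D180. At D180, 2 of 8 eosinophil markers were lower and none higher by limma (2 and 1 at an unadjusted p under 0.05), and of 10 markers of type 2 lymphoid cells 2 were higher and 2 lower. Of the structural lists, 5 of 8 pleural mesothelium markers and 5 of 9 pulmonary vein and heart muscle markers were lower, and of 12 alveolar epithelium markers 3 were higher and 4 lower.

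**Figure D5:**
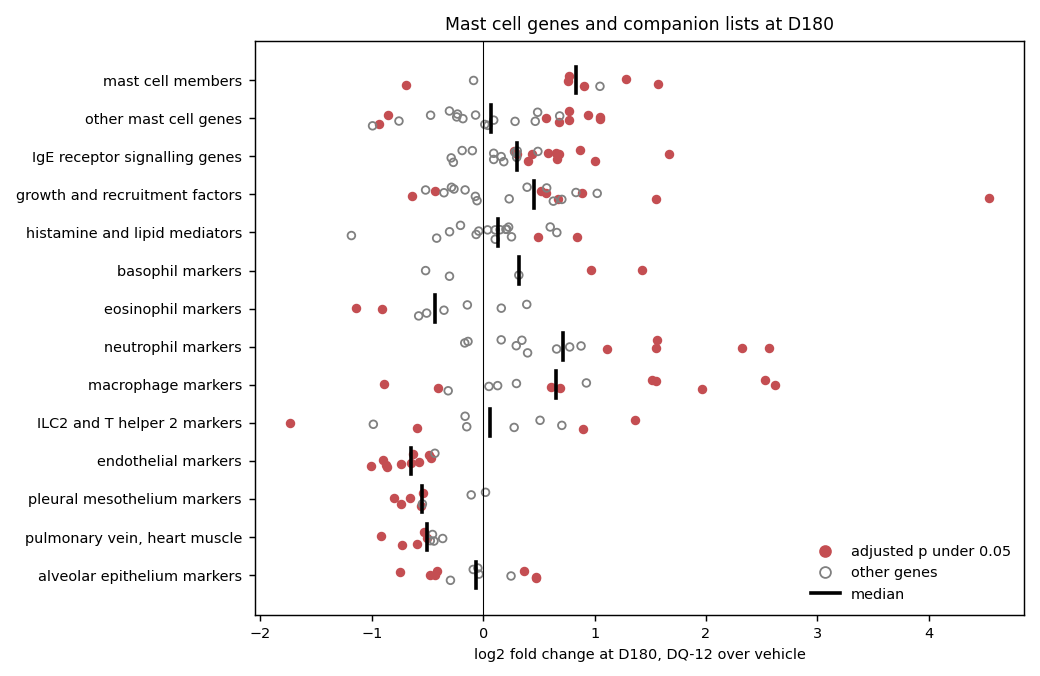
Log2 FC of DQ-12 over vehicle at D180 (horizontal axis) for each gene (points) of each list (rows), with filled red points for an adjusted p under 0.05, open points for other genes and a black line at the median of the list. The mast cell genes have a median of 0.84, the other mast cell genes 0.07 and the endothelial markers -0.65.

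Vehicle rats of different time points were compared as well, and 1 member was called. Ms4a2 was called higher at D180 than at D1 (log2 difference 1.18, adjusted p = 0.0474, with 10.6% of all genes called), but its probe was well above background on 3 of 6 vehicle arrays at D1, and the call was lost under several other ways of processing. No other member was called, and none at all between D30 and D1 or between D180 and D30 (6.53% and 11.5% of all genes called), with 1 and 0 members at an unadjusted p under 0.05. For Tpsab1 the vehicle difference between D180 and D1 was 0.48 (adjusted p = 0.349).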

How the data were processed

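Total RNA of the accessory lobe was hybridized in 1 color (Cy3) to Agilent arrays, and the authors deposited the scanner output of Feature Extraction 12.0.1.1, from which the processed signal, an intensity already background-subtracted and detrended, was used. The authors also deposited a table of log2 values, which matched log2 processed signals scaled to the 75th percentile of each array and centered per probe (median absolute difference 0.00177); it served as an alternative. Genome coordinates of the probes were not used here.

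Processed signals were log2-transformed, spots flagged as outliers were left out, and spots of 1 probe were averaged. Probes above the 95th percentile of 308 negative control spots on at least 6 arrays were kept (42200 of 45598), arrays were quantile-normalized, and the brightest probe stood for each gene name, which gave 23940 genes. Groups followed the labels, and the 6 samples of a group are labelled as separate replicates, 1 array each; where they are separate rats, p-values measure the spread between rats. limma 3.58.1 (R 4.3.3) fitted 6 group means with moderated variances, and p-values were adjusted per contrast (Benjamini–Hochberg). Exact permutation tests were 2-sided. Correlations used 100000 permutations within groups (scipy 1.17.1) on deviations from group means. Where slides or scan dates were used as random blocks, duplicateCorrelation gave their correlation. The fit was tested on simulated data. The members, the companion lists and the promoter motifs were chosen with earlier results of these data known, so no list was tested for its change with exposure. The endothelial list alone entered a test, in which the mean standardized level of its markers was correlated with each member. Those permutation p-values carry the same limit. Besides the members, the text names up to 3 genes of a list with the lowest adjusted p at each time point and the 5 genes most like the proteases. Alternatives covered the background correction, the scaling, the dim probe filter, the choice of probe, the model, slide and scan date blocks, and each rat left out. The comparison within scan dates at D180 and those of the pairs were chosen after seeing the data.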

Additional observations from a re-analysis of the deposited data

Results flagged for a closer look

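In 3 of the 48 groups of 6 values (8 genes in 6 groups), the most extreme array was separated from the rest by more than Dixon's 95% critical value, which chance alone exceeds in about 1 in 20 groups. Tpsab1 measured 8.18 in DQ-12 replicate 3 at D180, against 10.03 in the next rat of its group, a gap of 0.845 of the group's range. Cma1 measured 8.76 in DQ-12 replicate 1 at D30, where the next rat had 7.59 (0.675 of the range). Cma1 also measured 6.95 in vehicle replicate 2 at D30, where the next rat had 7.95 (0.629 of the range).

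The exposure effect on Tpsab1 differed between D180 and D1 by 1.52 on the log2 scale (SE 0.44, adjusted p = 0.0378 by limma), and it was higher than every vehicle rat in 5 of 6 DQ-12 rats at D180 and in 1 of 6 at D1. When each of the 24 rats of these groups was left out in turn, the difference was 1.36 to 1.86 and 7 fits kept the call. Those were the fits without vehicle replicate 3 or DQ-12 replicate 1, 2 or 5 at D1, and without vehicle replicate 2 or 4 or DQ-12 replicate 3 at D180. The adjusted p ran from 0.00207 to 0.0683. With slide as a fixed block the difference was 0.34 (adjusted p = 0.962) and with scan date as a fixed block 0.74 (adjusted p = 0.778). As random blocks they gave 1.29 (adjusted p = 0.133) and 1.33 (adjusted p = 0.177), so that the call was lost in each of these 4 fits.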

How the results depend on the processing

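Of 368 values of single members under other settings, 331 kept their side of the threshold, 26 lost a call and 9 gained one. Among the 331 were 25 values of members not called whose direction changed. The other 2 were called members that reversed, namely Cpa3 (-0.0047) and Fcer1a (-0.20) at D180 with slide as a fixed block. That block compares 1 array of each group there. At D180 6 members were called, but 0 with slide as a fixed block, 3 with slide as a random block, 3 with scan date as a fixed block, 3 with the arrays of the time point alone, 2 with only the scan dates that held both groups and 2 when a fold change of at least 2 was required as well. With scan date as a fixed block and with the arrays of the time point alone, the 3 were Tpsab1, Kit and Ms4a2. As Ms4a2 is not among the 6, Tpsab1 and Kit alone kept their calls there. With the arrays of the time point alone, the adjusted p was 0.0583 for Cma1, 0.0772 for Cpa3, 0.0904 for Fcer1a and 0.0995 for Tpsb2. The median log2 FC at D180 was 0.84, and 0.03 with slide as a fixed block. At D1 1 member was called, but 0 with slide or scan date as a fixed block, 0 with scan date as a random block, 0 with the fold change required, and 2 with array weights. The difference between time points was called for 1 member, and for 0 with slide or scan date as a fixed or random block. The difference between vehicle groups was called for 1 member, and for 0 with median intensity, normexp, 75th percentile scaling, the deposited log2 values, no filter on dim probes, the median over probes, array weights, or slide or scan date as a random block. Of 28 pairs, 6 passed, and 3 with scan date means removed. The cause of these changes was not tested. With each rat left out, the calls ranged from 1 to 1 at D1, from 0 to 0 at D30, from 2 to 6 at D180, from 0 to 1 between time points and from 0 to 1 between vehicle groups. The replicate numbers did not pair the samples (r of same-numbered deviations -0.13 to 0.22), and with the number as a replicate block 7 members were called at D180, with Ms4a2 added (adjusted p = 0.0238), 1 at D1 and 0 at D30. Ms4a2 was well above background on 26 of 36 arrays, which limits its calls.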
